A study of Mus musculus with 16 samples.

Results

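Fatty acid oxidation was followed through 36 genes in macrophages taken from, or grown from, mice. The genes were listed by what their proteins are known to do, and the rule uses no measured value, although the list was drawn up with earlier results of these data known. They were 36 of 47643 gene identifiers in each count table, of which 20730 had a count in at least 1 library. By the main location of the protein, 18 were mitochondrial, 14 were peroxisomal, and 4 work in both compartments or in the cytosol. All 36 passed the filter on low counts, so no member went untested.

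The study measured RNA in 16 libraries of cells from C57BL/6 mice, all labelled wild type. Pool cultures are alveolar macrophages cultured ex vivo from 2 pools of lavage cells. The first pool was sampled at passage 8 and again at passage 13, the other at passage 5 and again at passage 10. They are called pool 1 and pool 2, and each gave 2 libraries of 1 culture and not 2 independent cultures. The label mexAM stands for further alveolar macrophages cultured ex vivo, separately from mice 1, 2 and 4. BALF stands for freshly collected bronchoalveolar lavage cells, PLF for freshly collected peritoneal lavage cells and BMDM for bone marrow derived macrophages, each with 1 library from each of the same 3 mice. The labels used here give neither the age or sex of the mice, nor the number of animals in a pool, nor the passage of the mexAM cultures, nor any culture medium. Levels are CPM, a gene's share of the counts assigned to genes in its library, scaled to a common total. The libraries were made with a 3′ end kit that yields a tag near the end of each transcript, so levels were not divided by gene length.

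Fatty acids enter mitochondria as carnitine esters and are shortened there by rounds of oxidation, hydration, a second oxidation and thiolysis, with the electrons of the first step passed to the respiratory chain by the electron transfer flavoprotein. Peroxisomes take up very long-chain and branched acyl-CoAs, shorten them by a parallel set of enzymes whose first oxidation yields hydrogen peroxide, and hand medium-chain products back to mitochondria as carnitine esters. Alveolar macrophages clear surfactant lipid, and PPARγ, a lipid-activated nuclear receptor, is known for its part in their development.

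The depth was 827791 to 2884679 counts in genes per library. A further 10.6% to 29.9% of a library's counted reads fell outside genes. That share was 10.6% to 12.4% in pool cultures, 13.3% to 15.5% in mexAM, 19.9% to 21.4% in BALF, 27.6% to 29.9% in PLF and 20.8% to 28.3% in BMDM. The 10 alveolar macrophage markers summed to 6565 to 8199 CPM in pool cultures, 8574 to 11506 CPM in mexAM and 10029 to 13966 CPM in BALF, against 320 to 386 CPM in PLF and 303 to 485 CPM in BMDM. These markers did not all move together. Chil3 had 6553 to 10476 CPM in BALF and 2065 to 3528 CPM in mexAM. Itgax was lower in mexAM (40.0 to 64.7 CPM) than in BALF (453 to 497 CPM). Fabp1 was higher in mexAM (1049 to 3415 CPM) than in BALF (229 to 294 CPM). Gata6, the defining factor of peritoneal macrophages, was at 0 in all libraries other than those of PLF. Markers of other cells moved with some groups. Erythroid genes summed to 34.8 to 633 CPM in BALF, B cell genes to 853 to 1117 CPM and mast cell genes to 1875 to 2058 CPM in PLF, and eosinophil and neutrophil genes to 1675 to 4680 CPM in BMDM. Most of this BMDM sum was S100a8 (847 to 2334 CPM) and S100a9 (814 to 2277 CPM). Prg2 had 11.0 to 64.4 CPM there, Ly6g 2.74 to 4.35 CPM and Epx at most 0.967 CPM. Lung epithelium genes summed to 0 to 0.487 CPM in mexAM and 38.4 to 57.1 CPM in BALF, T and NK cell genes to 71.3 to 74.6 CPM in PLF, and mesothelium and fibroblast genes to 32.4 to 96.2 CPM in BMDM. Most of the lung epithelium sum in BALF was Epcam (30.9 to 39.6 CPM), with Scgb1a1 at 0.601 to 23.2 CPM and Sftpc, Sftpa1 and Sftpb at 1.54 CPM or less. In bulk RNA, fewer cells of a type and less RNA per cell cannot be told apart. The part of these markers, and of the share of reads outside genes, in the differences between groups was not tested except where a value is given.

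The 36 members together took a larger part of the RNA in cultured alveolar macrophages than in any other group. Their counts summed to 5348 to 6178 CPM in pool cultures, 7495 to 7601 CPM in mexAM, 2173 to 2560 CPM in BALF, 875 to 1132 CPM in PLF and 1806 to 2040 CPM in BMDM. No mexAM library overlapped with a library of another group. The mexAM share of all counts in genes was 0.757% ± 0.00613 (SD, n = 3), against 0.242% ± 0.0216 in BALF (SD, n = 3).

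**Figure D1:**
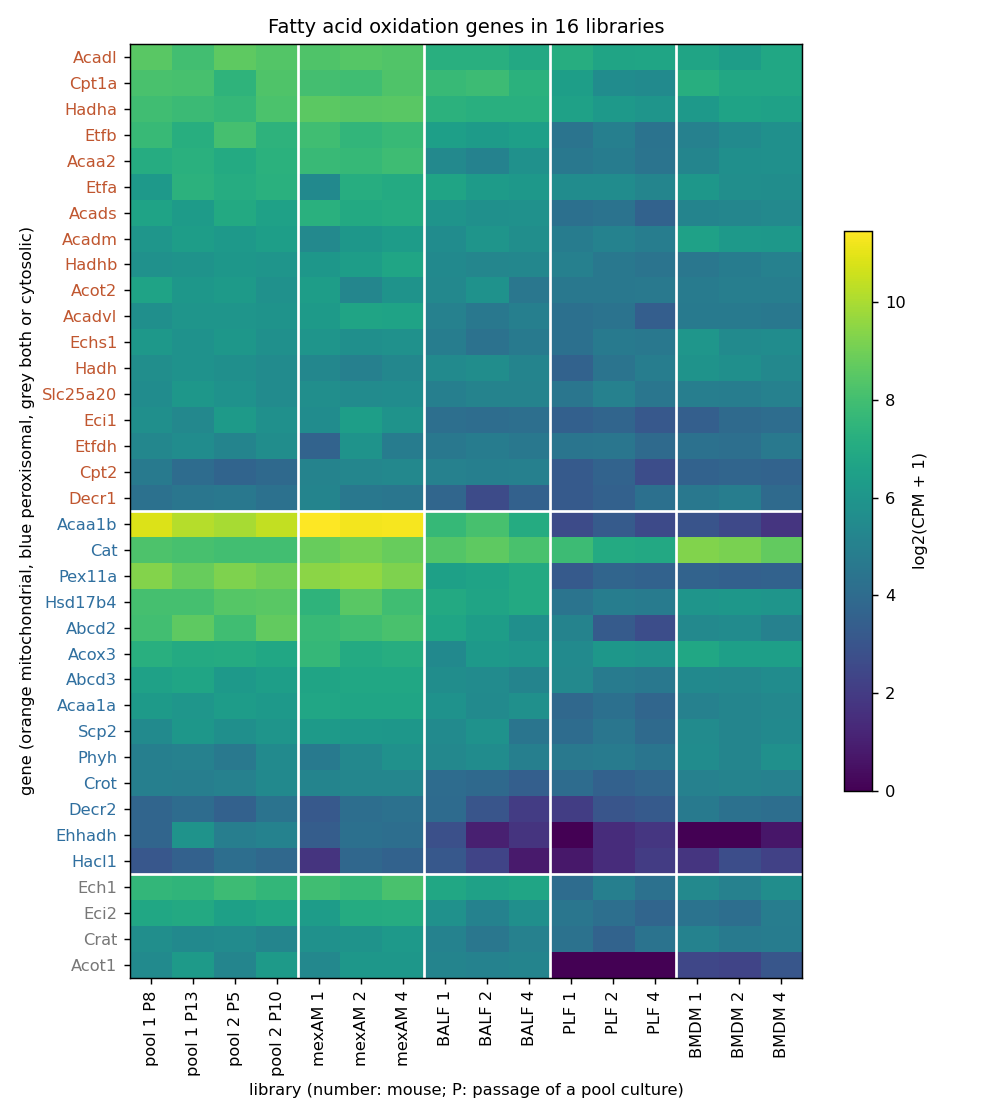
Level of each member (rows, log2 of CPM + 1) in each library (columns), with mitochondrial members on top, peroxisomal members below them and the 4 other members at the bottom, each sorted by mean level. The row of Acaa1b reaches 2824 CPM in the mexAM library of mouse 1 and stays under 9 CPM in every PLF and BMDM library.

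Both classes summed higher in mexAM than in BALF, the peroxisomal one by more, and much of its rise lay in Acaa1b and Pex11a. Mitochondrial members summed to 2151, 2235 and 2351 CPM in mexAM of mice 1, 2 and 4, against 1165, 1132 and 1009 CPM in BALF. Peroxisomal members summed to 4924, 4906 and 4687 CPM in mexAM, against 1131, 1246 and 940.01 CPM in BALF. The mitochondrial to peroxisomal ratio was 0.437, 0.456 and 0.502 in mexAM, lower than in every other library. It was 0.523, 0.608, 0.697 and 0.612 in the 4 pool libraries, 1.03, 0.909 and 1.07 in BALF, 1.37, 1.58 and 1.54 in PLF, and 0.806, 0.841 and 1.02 in BMDM.

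Acaa1b, a peroxisomal thiolase, was the most counted member in every mexAM and pool library, whereas Cat was the most counted member in every BALF, PLF and BMDM library. Without Acaa1b, a choice made after seeing the values, the ratio was 1.01 ± 0.092 in mexAM and 1.22 ± 0.049 in BALF (SD, n = 3 each). It was 1.52 ± 0.13 in PLF and 0.893 ± 0.11 in BMDM (SD, n = 3 each). In pool cultures it ran from 0.987 to 1.07, with a mean of 1.03, over 4 libraries of only 2 cultures. Pex11a, with the next largest fold change in mexAM against BALF, stayed in these sums. It averaged 696.5 CPM in mexAM and 103.6 CPM in BALF, and ratios without both genes were not computed. The ratios given are values per library without a test.

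**Figure D2:**
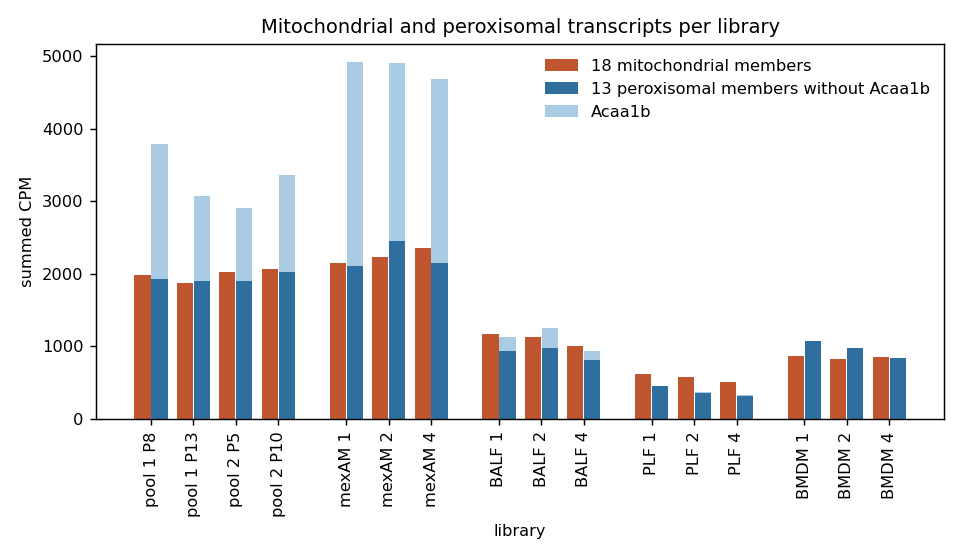
Summed CPM (vertical axis) of the mitochondrial members (orange) and the peroxisomal members (blue, with Acaa1b stacked in light blue) in each library (horizontal axis). Without the light blue segment, the paired bars of each mexAM and pool library have close to equal heights, while every PLF library keeps a taller orange bar.

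In mexAM against BALF, 22 of the 36 members were higher and 0 were lower at an adjusted p under 0.05 in edgeR, the threshold for a call, beside 15.2% of the 10011 genes tested that were higher and 14.8% that were lower. The 22 comprised 10 of 18 mitochondrial members, 9 of 14 peroxisomal members and 3 of the 4 others. The median log2 fold change was 0.95 over the mitochondrial members and 1.05 over the peroxisomal members, against 0.008 over all genes tested. No member was lower at an unadjusted p under 0.05 or by DESeq2, which called 21 higher. Of the 36, 28 had all 3 mexAM libraries above all 3 BALF libraries, and 8 overlapped, beside 30.5% of all genes tested with every mexAM library above and 14.7% with every one below. Fold changes come from a fit with scaled library sizes and differ slightly from the ratio of the CPM values. Scaling by library totals alone moved the median of all genes by over 0.1, to 0.217, and the share of calls that were higher was then 67.4%, against 50.6%. With it, 25 members were then higher and 0 lower, beside 22.3% and 10.8% of all genes.

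Erythroid transcripts were lowest in the BALF library of mouse 1, at 34.8 CPM. With that library as the only one of its group, a choice that assumes it varies like the other groups, 30 of the 36 members had a positive fold change, with a median of 0.82, and 6 were called, beside 5.25% of 11078 genes. The part of erythroid cells in the other calls was not tested.

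In mexAM against BMDM, 26 members were higher and 0 lower, beside 21.5% and 23.0% of all genes. The count was 13 of 18 mitochondrial and 9 of 14 peroxisomal members, with medians of 1.48 and 1.39. Against PLF, 35 members were higher in mexAM and 0 lower, beside 28.4% and 29.6% of all genes. In both comparisons 0 members were lower at an unadjusted p under 0.05 or by DESeq2. They share the mexAM libraries with the first. Of the members, 19 were called higher in mexAM against both BALF and BMDM, beside 8.77% of the 10011 genes.

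**Figure D3:**
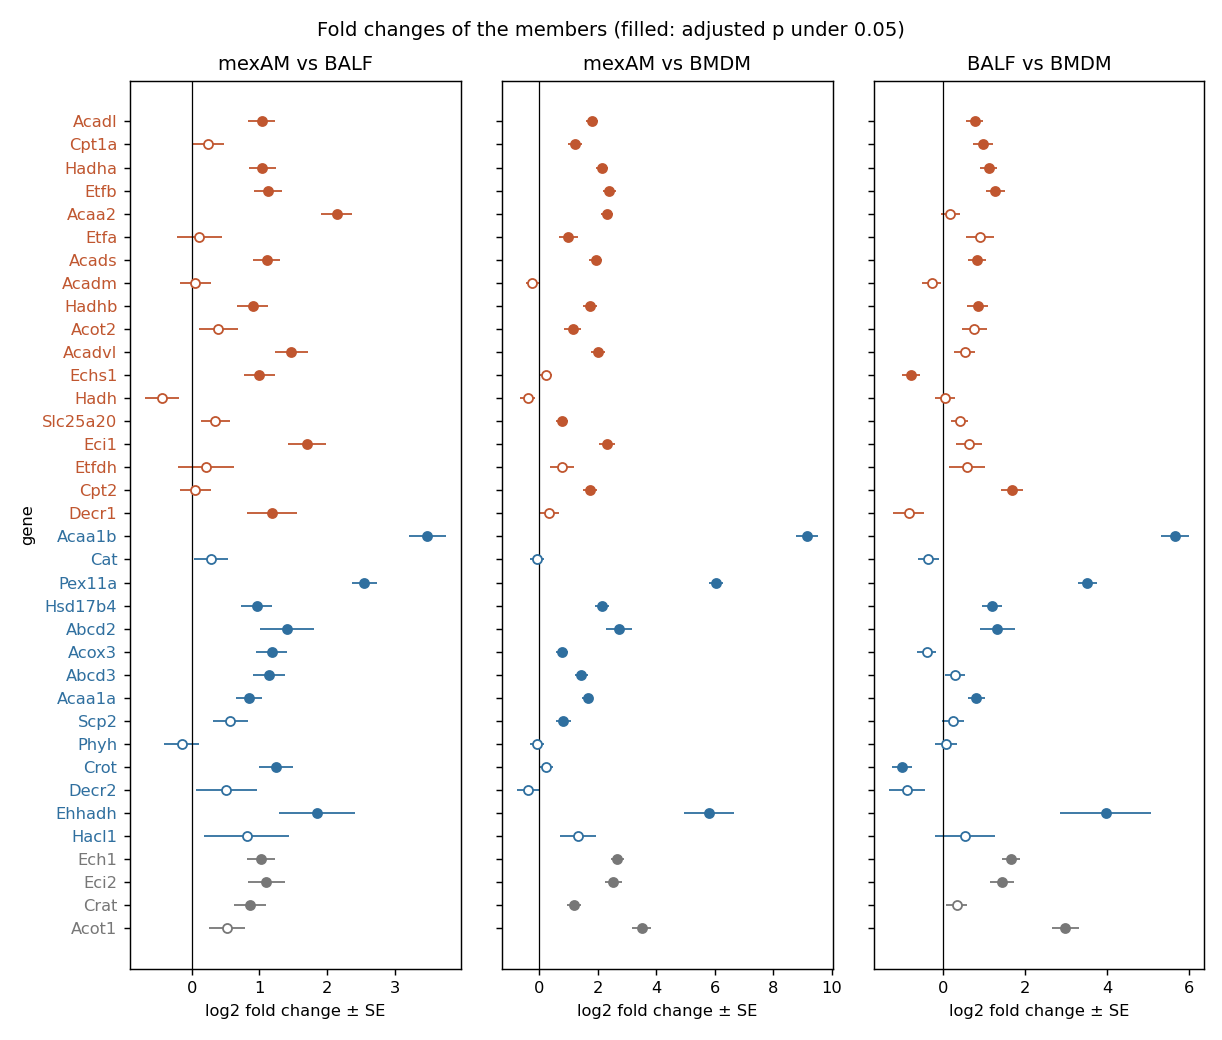
Log2 fold change ± SE (horizontal axes) of each member (vertical axis) for mexAM against BALF, mexAM against BMDM and BALF against BMDM, with filled points where the adjusted p was under 0.05. Filled points lie to the right of 0 in the first 2 panels, and in the last panel Echs1 and Crot are filled on the left.

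None of the 3 members of the carnitine shuttle passed the test in mexAM against BALF, and Cpt1a and Slc25a20 were called against BMDM, as was Cpt2 with a log2 fold change of 1.74 ± 0.25 (SE, adjusted p = 1.69e-05). Cpt1a, which makes acylcarnitines at the outer mitochondrial membrane and sets the pace of entry, had 263, 249 and 314 CPM in mexAM of mice 1, 2 and 4, against 211, 234 and 159 CPM in BALF. The mexAM values lay above the BALF values in each library, with a log2 fold change of 0.24 ± 0.23 (SE, adjusted p = 0.462), which did not pass the threshold. Against BMDM, with 144, 115 and 116 CPM, it was 1.21 ± 0.24 (SE, adjusted p = 0.000439). Cpt2, which turns acylcarnitines back into acyl-CoA inside the mitochondrion, had 33.7, 37.0 and 40.0 CPM in mexAM and 31.8, 29.4 and 30.9 CPM in BALF, a log2 fold change of 0.05 ± 0.23 (SE, adjusted p = 0.894). BMDM had 11.1, 12.3 and 11.6 CPM of Cpt2, and both lung groups stood clear of them. Slc25a20, the carnitine and acylcarnitine exchanger of the inner membrane, had a log2 fold change of 0.35 ± 0.21 (SE, adjusted p = 0.207) in mexAM against BALF and 0.77 ± 0.20 (SE, adjusted p = 0.00492) against BMDM.

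Of the 4 acyl-CoA dehydrogenases, which catalyse the first oxidation for chains of different length, 3 rose in mexAM against BALF. Acadvl, the very long-chain enzyme, had 74.3, 102 and 99.7 CPM in mexAM and 31.8, 23.3 and 30.1 CPM in BALF. The groups did not overlap, and the log2 fold change was 1.47 ± 0.24 (SE, adjusted p = 0.000189). Acadl, the long-chain enzyme and among the most counted mitochondrial members, had 312, 345 and 329 CPM in mexAM and 149.6, 151 and 119 CPM in BALF, with 1.03 ± 0.20 (SE, adjusted p = 0.000795). Acads, the short-chain enzyme, had a log2 fold change of 1.11 ± 0.20 (SE, adjusted p = 0.000604). Acadm, the medium-chain enzyme, stood apart from them. It had 40.7, 66.7 and 78.7 CPM in mexAM, 46.3, 61.9 and 49.4 CPM in BALF and 92.3, 70.6 and 68.6 CPM in BMDM, so that the groups overlapped and the fold changes were 0.05 ± 0.23 (SE, adjusted p = 0.908) against BALF and -0.23 ± 0.22 (SE, adjusted p = 0.417) against BMDM.

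The later steps showed the same division. Hadha and Hadhb, the subunits of the trifunctional protein that handles long chains at the inner membrane, were both higher in mexAM. Hadha had 376, 361 and 370.3 CPM in mexAM, 166, 148 and 149.7 CPM in BALF and 71.5, 98.1 and 93.2 CPM in BMDM. Its 3 mexAM values were close to each other and above all others, with 1.04 ± 0.20 (SE, adjusted p = 0.000933) against BALF and 2.15 ± 0.21 (SE, adjusted p = 2.07e-07) against BMDM. Hadhb gave 0.90 ± 0.23 (SE, adjusted p = 0.00773) and 1.74 ± 0.24 (SE, adjusted p = 1.12e-05). Of its 65-base windows in the last 500 bases of its transcripts, 29.7% also occur in other annotated genes, so its reads may divide between them.

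Acaa2, the mitochondrial thiolase that releases acetyl-CoA, had the largest log2 fold change among the mitochondrial members in mexAM against BALF. It had 218, 207 and 236 CPM in mexAM and 40.9, 32.5 and 54.8 CPM in BALF. All mexAM values were several times every BALF value, with 2.14 ± 0.23 (SE, adjusted p = 2.38e-06). Echs1, the enoyl-CoA hydratase of shorter chains, had 62.7, 52.1 and 54.8 CPM in mexAM and 28.2, 19.3 and 24.7 CPM in BALF. These groups did not overlap either, with 1.00 ± 0.23 (SE, adjusted p = 0.00321). The short-chain hydroxyacyl-CoA dehydrogenase Hadh went the other way in sign without passing the test, with 38.3, 31.1 and 38.7 CPM in mexAM and 43.3, 48.7 and 35.5 CPM in BALF, a log2 fold change of -0.44 ± 0.25 (SE, adjusted p = 0.206). In BMDM it had 58.0, 52.1 and 39.8 CPM, every one above every mexAM library, and the log2 fold change of mexAM against BMDM was -0.39 ± 0.25 (SE, adjusted p = 0.209).

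Among the auxiliary mitochondrial enzymes, Eci1, the isomerase that lets unsaturated chains enter the cycle, had 46.5, 86.1 and 57.7 CPM in mexAM and 17.4, 16.2 and 17.0 CPM in BALF. The BALF libraries lay within 2 CPM of each other and the mexAM libraries were spread well above them, with 1.70 ± 0.28 (SE, adjusted p = 0.000229). Decr1, the reductase for dienoyl-CoA, was also called, with 1.19 ± 0.37 (SE, adjusted p = 0.0227), and lost the call without the BALF library of mouse 2 (adjusted p = 0.0976) or without the mexAM library of mouse 1 (adjusted p = 0.0855). Acot2, a thioesterase that releases free fatty acid from acyl-CoA, had 0.39 ± 0.29 (SE, adjusted p = 0.335) against BALF and 1.14 ± 0.29 (SE, adjusted p = 0.00375) against BMDM.

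Of the electron transfer flavoprotein subunits, Etfb was called in mexAM against BALF and Etfa was not, with 1 mexAM library far below the others for Etfa. Etfb, its beta subunit, had 244, 188 and 209.6 CPM in mexAM and 88.3, 77.1 and 87.2 CPM in BALF. No libraries overlapped, with 1.13 ± 0.21 (SE, adjusted p = 0.000727). Of its end windows, 54.5% also occur in Gm45233. Etfa, the alpha subunit, had 41.8, 140.1 and 128 CPM in mexAM of mice 1, 2 and 4, against 103, 78.1 and 68.7 CPM in BALF. The mexAM library of mouse 1 lay below all BALF libraries and the other two lay above them. Etfdh, which passes the electrons on to ubiquinone, had 11.6, 57.4 and 27.2 CPM in mexAM and 22.8, 27.4 and 23.2 CPM in BALF, with the same library lowest.

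Neither Etfa (log2 fold change 0.11 ± 0.33) nor Etfdh (0.21 ± 0.41) passed the test against BALF. Without the mexAM library of mouse 1, the log2 fold changes were 0.47 for Etfa and 0.58 for Etfdh, again not called. Of the 3 mexAM libraries it was the lowest for 19 of the 36 members and the highest for 11, against 13 and 13 for that of mouse 2 and 4 and 12 for that of mouse 4. No such count was made over all genes, so these counts cannot be read as particular to the members. The Pparg level of the mexAM library of mouse 1 was 17.4 CPM, with 132 and 66.7 CPM in mexAM of mice 2 and 4. Its part in these values was not tested. Against BMDM, Etfa was called with 1.00 ± 0.33 (SE, adjusted p = 0.0229). Leaving out 1 of 4 libraries in turn (mexAM of mice 2 or 4, BMDM of mice 2 or 4) gave an adjusted p between 0.0694 and 0.112.

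All 3 peroxisomal membrane proteins among the members rose in mexAM against BALF. Pex11a, which drives the elongation and division of peroxisomes, had 706, 769 and 614 CPM in mexAM of mice 1, 2 and 4, against 89.5, 99.4 and 122 CPM in BALF. Every mexAM value was several times every BALF value, and the log2 fold change was 2.55 ± 0.19 (SE, adjusted p = 6.05e-08). BMDM had 11.6, 10.3 and 11.0 CPM and PLF had 8.44, 12.5 and 11.1 CPM, so that BALF stood well above both. In mexAM against BMDM the log2 fold change of Pex11a was 6.06 ± 0.24 (SE, adjusted p = 1.07e-11).

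Abcd2 and Abcd3, which carry very long-chain and branched acyl-CoAs across the peroxisomal membrane, were both called. Abcd2 had 208, 242 and 289 CPM in mexAM and 106, 81.2 and 51.7 CPM in BALF. The groups did not overlap, although both spread widely. Its log2 fold change was 1.41 ± 0.40 (SE, adjusted p = 0.0171), and the adjusted p was 0.0583 without the BALF library of mouse 2, 0.0722 without that of mouse 4 and 0.0562 without the mexAM library of mouse 4. Abcd3 had 1.14 ± 0.23 (SE, adjusted p = 0.0012).

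Acaa1b, which with its paralog Acaa1a encodes the peroxisomal thiolases of straight chains in the mouse, had the largest log2 fold change of the members in mexAM against each of BALF and BMDM. It had 2824, 2449.5 and 2532 CPM in mexAM and 203, 275 and 131 CPM in BALF. In BMDM it had 6.77, 4.80 and 2.45 CPM and in PLF 5.19, 8.92 and 4.93 CPM. The groups formed separate levels, with mexAM far above BALF, and BALF far above BMDM and PLF, which overlapped each other. Its log2 fold change was 3.48 ± 0.27 (SE, adjusted p = 7.26e-08) in mexAM against BALF and 9.15 ± 0.37 (SE, adjusted p = 1.13e-11) against BMDM.

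Acaa1a had 109, 105 and 106 CPM in mexAM and 55.9, 43.6 and 52.5 CPM in BALF. It was called too, at a smaller size, with 0.85 ± 0.19 (SE, adjusted p = 0.00297). In GRCm38, Acaa1a lies on chr9:119339676-119350299 on the forward strand and Acaa1b on chr9:119148023-119157093 on the reverse strand. Of the 65-base windows in the last 500 bases, 33.3% of those of Acaa1b also occur in Acaa1a and 26.0% of those of Acaa1a in Acaa1b. The sources used here do not say how reads from shared windows were counted, and the division of reads between this pair is uncertain.

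The promoters of Acaa1b and Pex11a are shown because these genes had the largest fold changes in mexAM against BALF. Each sequence, from RefSeq on GRCm38.p6, runs from 250 bases before to 50 bases after the start, on the reverse strand, at chr9:119157044-119157343 for Acaa1b and chr7:79743082-79743381 for Pex11a. It is in lower case throughout, because none of the motifs searched occurs in it.
Acaa1b: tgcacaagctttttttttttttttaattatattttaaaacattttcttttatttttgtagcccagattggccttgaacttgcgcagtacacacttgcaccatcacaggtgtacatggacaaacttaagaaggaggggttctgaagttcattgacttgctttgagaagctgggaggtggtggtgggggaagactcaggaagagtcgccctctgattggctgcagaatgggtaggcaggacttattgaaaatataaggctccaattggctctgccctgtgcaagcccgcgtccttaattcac
Pex11a: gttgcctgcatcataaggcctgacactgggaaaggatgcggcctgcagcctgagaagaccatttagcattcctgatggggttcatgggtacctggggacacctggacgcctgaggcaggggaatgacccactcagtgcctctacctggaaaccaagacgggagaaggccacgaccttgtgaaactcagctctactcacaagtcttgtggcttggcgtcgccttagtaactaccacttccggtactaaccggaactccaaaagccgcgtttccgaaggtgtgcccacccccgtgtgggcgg

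Promoters of 31 of the 36 members were in the RefSeq table, with 32 starts in all. They were searched on both strands for DR1, the direct repeat of AGGTCA with a base between the copies that PPAR binds with RXR, allowing 2 mismatches. It occurred in 4 of the 32 promoters (12.5%), against 3.86% of all 32851 promoters. The exact half-site AGGTCA, which is part of DR1, occurred in 7 of the 32 (21.9%), against 16.3% of all. The ERR motif TCAAGGTCA, which contains the half-site, was in none of the 32 and in 0.423% of all. The 4 DR1 matches are shown along the strand of the match, with capitals for the bases that equal the motif. They lie at chr2:103485345-103485357 (reverse strand) for Cat, chr7:140116492-140116504 (reverse) for Echs1, chr9:55512308-55512320 (forward) for Etfa and chr9:108662142-108662154 (forward) for Slc25a20.
Cat: AGGTCAgAGaaCA
Echs1: AGGTCAcgGGTCc
Etfa: AGGgCAaAGGTaA
Slc25a20: AGGTgAaAGGTCg
Of the genes with these matches, only Echs1 was called in mexAM against BALF, and a match of letters does not show binding.

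The other enzymes of the peroxisomal spiral were mostly higher in mexAM. Acox3, an acyl-CoA oxidase for branched chains, had 197, 127 and 142 CPM in mexAM and 42.1, 73.1 and 64.8 CPM in BALF. The groups did not overlap, with 1.18 ± 0.23 (SE, adjusted p = 0.00104). Hsd17b4, the D-bifunctional protein that hydrates and oxidises the chain, had 175, 369 and 249 CPM in mexAM and 126, 102 and 124 CPM in BALF. Every mexAM library was above every BALF library, with that of mouse 1 the closest to them. Its log2 fold change was 0.96 ± 0.23 (SE, adjusted p = 0.00524), and it was 0.62 (adjusted p = 0.0385) without the mexAM library of mouse 2.

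Ehhadh, the L-bifunctional protein, was at low levels in these groups. It had 9.29, 17.5 and 16.5 CPM in mexAM and 6.01, 1.01 and 2.32 CPM in BALF. The groups did not overlap, and the log2 fold change of 1.85 ± 0.56 (SE, adjusted p = 0.0193) lost its call when any of 4 libraries was left out, at adjusted p between 0.0522 and 0.0801, and under DESeq2 (adjusted p = 0.0588). It was 2.81 without the BALF library of mouse 1. BMDM held 1 count of Ehhadh over 3 libraries, and the ratio of mexAM to BMDM was 76.5 with a 95% interval of 13.4 to 3.05e+03, which covers counting error only. Scp2, whose longer product is the thiolase for branched chains, had 0.57 ± 0.26 (SE, adjusted p = 0.109) against BALF and 0.82 ± 0.26 (SE, adjusted p = 0.0145) against BMDM. Of its end windows, 31.1% also occur in the pseudogene Scp2-ps2, and the BMDM call was lost without the BMDM library of mouse 2 (adjusted p = 0.0619).

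Crot, which exports shortened chains as carnitine esters, was higher in mexAM, with 35.4, 38.0 and 37.1 CPM, than in BALF, with 15.6, 14.2 and 10.0 CPM. The log2 fold change was 1.25 ± 0.25 (SE, adjusted p = 0.00116). BMDM had 31.9, 34.3 and 31.9 CPM, just below every mexAM library and not called, with 0.25 ± 0.22 (SE, adjusted p = 0.371).

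Catalase, which breaks down the hydrogen peroxide of peroxisomal oxidation, was not called in mexAM against BALF or BMDM. Cat had 449, 537 and 438 CPM in mexAM, 331, 397 and 291 CPM in BALF and 618, 563 and 412 CPM in BMDM. The mexAM values lay above those of BALF by less than the test could call, with 0.29 ± 0.25 (SE, adjusted p = 0.419), and overlapped those of BMDM, with -0.08 ± 0.25 (SE, adjusted p = 0.832). The alpha-oxidation enzymes Phyh and Hacl1 were not called either, with -0.15 ± 0.26 (SE, adjusted p = 0.703) and 0.81 ± 0.63 (SE, adjusted p = 0.36) against BALF. Decr2, the peroxisomal dienoyl-CoA reductase, had 0.51 ± 0.45 (SE, adjusted p = 0.413). Hacl1 stayed under 14 CPM in every mexAM library, and 38.5% of its end windows also occur in Gm49387.

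Of the members with both locations or in the cytosol, Ech1, a dienoyl-CoA isomerase, had 244, 204 and 291 CPM in mexAM and 114, 94.4 and 105 CPM in BALF, with no overlap and 1.02 ± 0.21 (SE, adjusted p = 0.00155). Eci2, an enoyl-CoA isomerase, was called with 1.10 ± 0.27 (SE, adjusted p = 0.00601), and Crat, the carnitine acetyltransferase, with 0.86 ± 0.23 (SE, adjusted p = 0.0101). The call of Crat was lost without the BALF library of mouse 2 (adjusted p = 0.0555). Acot1, the cytosolic thioesterase, had 40.1, 65.7 and 65.1 CPM in mexAM and 34.8, 32.5 and 35.5 CPM in BALF, and it was not called, with 0.52 ± 0.26 (SE, adjusted p = 0.135). BMDM had 4.35, 4.11 and 7.35 CPM of Acot1, and all 3 PLF libraries were at 0. Against a floor of 3 counts over the PLF group, Acot1 was at least 81.3-fold higher in mexAM, at least 48.9-fold higher in BALF and at least 7.53-fold higher in BMDM. Of its end windows, 5.73% also occur in Acot2, its neighbour on chromosome 12.

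Against BMDM, the leading members by size and level beside Acaa1b, Pex11a and Acot1 were Abcd2, Ech1 and Eci2. Abcd2 had 40.6, 45.3 and 31.9 CPM in BMDM of mice 1, 2 and 4, below every mexAM library, with a log2 fold change of 2.73 ± 0.43 (SE, adjusted p = 0.000108) in mexAM. Ech1 had 41.6, 32.2 and 47.8 CPM in BMDM, below every mexAM library, with 2.67 ± 0.22 (SE, adjusted p = 3.46e-08). Eci2 had 80.1, 130.4 and 137 CPM in mexAM, 54.7, 32.5 and 51.7 CPM in BALF and 19.3, 16.5 and 27.6 CPM in BMDM, with 2.53 ± 0.29 (SE, adjusted p = 1.52e-06) against BMDM. Its mexAM, BALF and BMDM libraries formed separate ranges in that order. For Acot1, the log2 fold change of mexAM against BMDM was 3.50 ± 0.31 (SE, adjusted p = 2.21e-07).

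**Figure D4:**
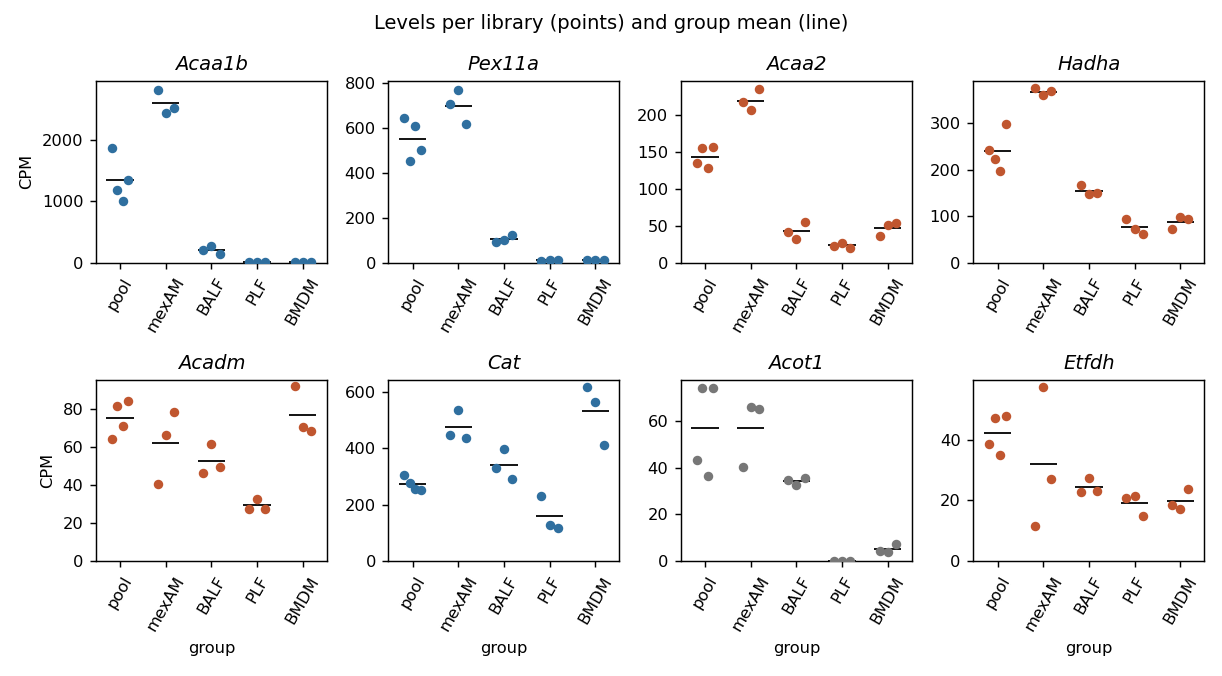
CPM (vertical axes) of 8 members in each library (points) by group (horizontal axes), with a line at the group mean; the pool points are 4 libraries of 2 cultures. Acaa1b, Pex11a, Acaa2 and Hadha are highest in mexAM, Acadm and Cat reach their highest library in BMDM, Acot1 is at 0 in PLF, and Etfdh spreads from 11.6 to 57.4 CPM within mexAM.

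Freshly collected lung cells were themselves above the other groups for many members. In BALF against BMDM, 16 members were higher and 2 were lower, beside 18.2% and 19.3% of all genes. Scaling by library totals alone moved the median of all genes to -0.316 and the share of calls that were higher to 30.5%, against 48.5%. With it, 12 members were then higher and 6 lower, beside 12.2% and 27.8% of all genes. By size and level the leading members were Acaa1b (5.66 ± 0.34 SE), Pex11a (3.51 ± 0.23), Acot1 (2.98 ± 0.33), Cpt2 (1.68 ± 0.26), Ech1 (1.65 ± 0.22) and Eci2 (1.44 ± 0.30), on the log2 scale, all with an adjusted p of 0.00103 or less. The 2 lower members were Crot, with a log2 fold change of -1.0 ± 0.25 (SE, adjusted p = 0.00463), and Echs1, with -0.78 ± 0.23 (SE, adjusted p = 0.0118). Echs1 had 28.2, 19.3 and 24.7 CPM in BALF, against 63.3, 43.9 and 46.6 CPM in BMDM, and the groups did not overlap. The call of Echs1 was lost without the BALF library of mouse 2 (adjusted p = 0.0573) or the BMDM library of mouse 1 (adjusted p = 0.0752). Both of these genes were higher in mexAM than in BALF.

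Peritoneal cells had the lowest summed level, although Acadl, Acaa1b and Ehhadh averaged lower in BMDM and Decr1 in BALF. In BALF against PLF, 28 members were higher and 0 lower, beside 19.5% and 20.8% of all genes. With library totals alone the share of calls that were higher was 33.1%, against 48.4%, and 22 members were higher. With the mouse as a block, Acadl was no longer called in that comparison (adjusted p = 0.0611). In PLF against BMDM, 0 members were higher and 18 were lower, beside 18% and 18.4% of all genes, at 8 of 14 peroxisomal and 7 of 18 mitochondrial members. The counts of 0 from edgeR here were also 0 at an unadjusted p under 0.05 and by DESeq2. Cat had 229.7, 128 and 118 CPM in PLF, against 618, 563 and 412 CPM in BMDM, with -1.68 ± 0.26 (SE, adjusted p = 6.94e-05). Acadm had 27.3, 33.0 and 27.7 CPM in PLF, against 92.3, 70.6 and 68.6 CPM in BMDM, with -1.36 ± 0.24 (SE, adjusted p = 0.000237). With the mouse as a block, Abcd2 was called lower in PLF as well (adjusted p = 0.0392), against 0.067 without it. In mexAM against PLF the leading members by size and level, beside Acot1, were Acaa1b (8.75 ± 0.37 SE), Pex11a (6.08 ± 0.24), Abcd2 (3.92 ± 0.47), Ech1 (3.61 ± 0.24) and Hsd17b4 (3.47 ± 0.27), on the log2 scale. In PLF of mice 1, 2 and 4, Abcd2 had 33.7, 8.92 and 5.55 CPM. Ech1 had 15.6, 29.4 and 18.5 CPM in PLF. Hsd17b4 had 20.1, 27.6 and 26.5 CPM in PLF. All of these values lay below every mexAM library. Etfdh alone was not called there, with 0.82 ± 0.42 (SE, adjusted p = 0.103). PLF held B cell and mast cell transcripts at the levels given above, and their part in these differences was not tested.

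With origin and culture each averaged over the other, 30 members were higher in lung cells (mexAM and BALF) than in the others (BMDM and PLF), beside 25.3% of all genes, and 0 were lower, beside 26.6%. For cultured cells (mexAM and BMDM) against fresh ones (BALF and PLF), 27 were higher and 0 lower, beside 20.7% and 20% of all genes. With library totals alone the share of calls that were higher was 37.6% against 48.8% for origin and 62.8% against 50.8% for culture. Then 26 and 30 members were higher, beside 19.7% and 26.1% of all genes. Both counts of lower members were also 0 at an unadjusted p under 0.05 and by DESeq2. With the mouse as a block, Acadm (adjusted p = 0.0601) and Hadh (adjusted p = 0.0542) were no longer called for origin, and Hadhb (adjusted p = 0.0534) was no longer called for culture. BMDM are not cultured PLF cells, so the average over both pairs joins unlike contrasts.

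The difference between mexAM and BALF was therefore set against the difference between BMDM and PLF, in a test chosen after seeing the data. It was called for 11 members. The log2 difference was larger in the lung pair for 7 (19.4% of the members), beside 9.33% of all genes. For 4 it was smaller (11.1%), near the 11.6% of all genes. With library totals alone the share of calls that were higher was 55.9%, against 44.5%. Then 8 members were higher and 4 lower, beside 12.1% and 9.54% of all genes. Pex11a differed by 2.55 in the lung pair and by 0.02 in the other pair, on the log2 scale, a difference of 2.53 ± 0.33 (SE, adjusted p = 3.21e-05). Acaa1b differed by 3.48 and by -0.40, a difference of 3.88 ± 0.53 (SE, adjusted p = 4.59e-05). Cat differed by 0.29 in the lung pair and by 1.68 in the other, a difference of -1.40 ± 0.36 (SE, adjusted p = 0.00946). Hadh, at -1.74 ± 0.37, and Acadm, at -1.32 ± 0.33, shared that sign.

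**Figure D5:**
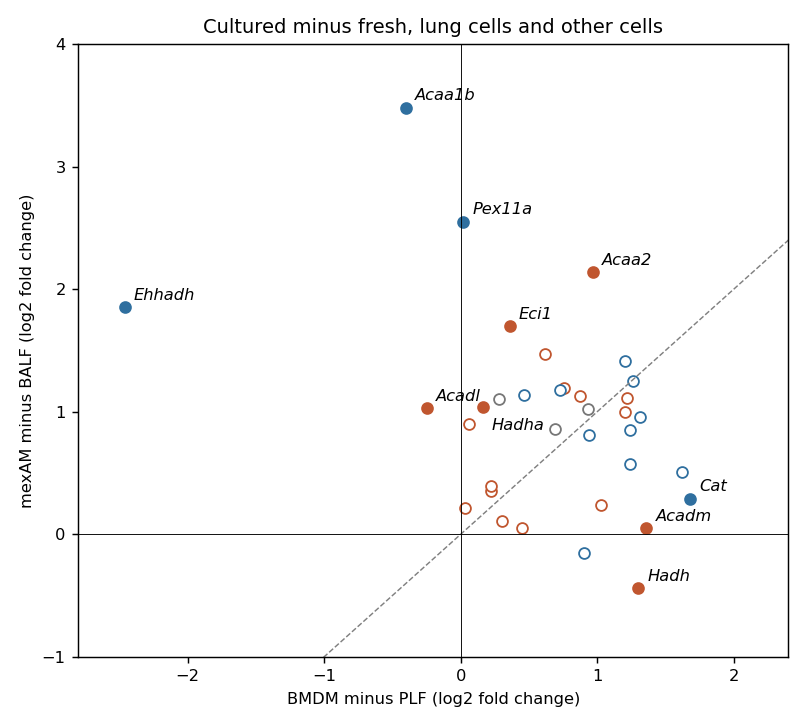
Log2 fold change of each member in mexAM minus BALF (vertical axis) against that in BMDM minus PLF (horizontal axis), coloured as in the other plots (orange mitochondrial, blue peroxisomal, grey other), filled and named where the 2 differences differ at an adjusted p under 0.05, with a dashed line where they are equal. Acaa1b and Pex11a stand high at the middle, while Cat, Acadm and Hadh lie to the right of the line; Acot1, at 0 in PLF, is left out.

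The pool cultures, sampled at known passages, overlapped mexAM in 25 of the 36 members, beside 85.6% of 10602 genes. Hadh lay above every mexAM library in all 4 pool libraries, beside 6.17% of genes, and 10 members lay below, beside 8.22%. For a test, the 2 libraries of each pool were summed, which leaves 2 pools against 3 mexAM libraries. In pool cultures against mexAM, 0 members were higher and 1 was lower, beside 0.519% and 0.179% of 10602 genes. DESeq2 called 0 higher and 2 lower, and at an unadjusted p under 0.05 there were 1 higher (Ehhadh) and 11 lower. The share of all genes at that unadjusted threshold was not computed, so these counts cannot be read as particular to the members. The lower member was Cpt2, with 25.0 and 15.4 CPM in pool 1 (passages 8 and 13) and 12.1 and 14.2 CPM in pool 2 (passages 5 and 10), against 33.7, 37.0 and 40.0 CPM in mexAM. All pool libraries lay below all mexAM libraries, with -1.16 ± 0.25 (SE, adjusted p = 0.0391). The call was lost with the mouse as a block (adjusted p = 0.0609) and when any mexAM library or either later passage was left out (adjusted p between 0.0525 and 0.172).

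Acaa1b had 1873 and 1182 CPM in pool 1 (passages 8 and 13) and 1011 and 1342 CPM in pool 2 (passages 5 and 10). These values lay below every mexAM library and above every BALF library. Against mexAM the log2 fold change was -0.92 ± 0.26 (SE, adjusted p = 0.0995), and against BALF it was 2.56 ± 0.26 (SE, adjusted p = 1.17e-06). Pex11a had 642 and 449.5 CPM in pool 1 and 609 and 499.5 CPM in pool 2, overlapping mexAM, with 2.15 ± 0.19 (SE, adjusted p = 2.51e-07) against BALF. Ehhadh had 12.5 and 59.0 CPM in pool 1 and 29.0 and 32.6 CPM in pool 2, and it was the member with the largest log2 fold change of pool cultures against BALF, at 3.14 ± 0.49 SE.

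In pool cultures against BALF, 16 members were higher and 1, Cpt2 again with -1.11 ± 0.26 (SE, adjusted p = 0.00428), was lower, beside 13.6% and 12.4% of all genes. With library totals alone the share of calls that were higher was 67.7%, against 52.4%. Then 20 members were higher, beside 18.9% of all genes. With the BALF library of mouse 1 as the only one of its group, 31 of the 36 members had a positive fold change, with a median of 0.58. With the mouse and the pool as a block, Ech1 was no longer called (adjusted p = 0.0515). The pool cultures and the mexAM cultures were grown separately, and BALF is common to both comparisons.

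Between the later and the earlier passage of the pools, 0 members were called in either direction, beside 0.00950% of 10527 genes higher and 0.00% lower, and DESeq2 also called 0 members. At an unadjusted p under 0.05, 2 were higher at the later passage (Acot1 and Ehhadh) and 2 lower (Etfb and Pex11a), without a share of all genes at that threshold to set beside them. The fold changes of the members ran from -0.71 to 1.07 on the log2 scale. Ehhadh was at the upper end, with 1.07 ± 0.50 (SE, adjusted p = 0.545), and Etfb at the lower end, with -0.71 ± 0.26 (SE, adjusted p = 0.447). The fit behind these values held all 16 libraries, with 10 residual degrees of freedom. Its SEs and p-values therefore also use the spread within cell groups other than the pools. It did not pair the later and the earlier library of a pool. With the mouse and the pool as a block, 0 members were called as well.

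Other genes of the pathway were read from 5 lists, to be set beside the 15.2% of all genes that were higher and 14.8% lower in mexAM against BALF. Of genes for fatty acid uptake and activation, 8 of 12 tested were higher in mexAM than in BALF and 1 was lower. Acsl3, an acyl-CoA synthetase, had 212, 213 and 219.9 CPM in mexAM and 11.4, 6.09 and 10.0 CPM in BALF, with 4.28 ± 0.25 (SE, adjusted p = 4.78e-09). Dbi, the acyl-CoA binding protein, had 4145, 2273 and 2747 CPM in mexAM and 446, 476 and 404 CPM in BALF, with 2.58 ± 0.25 (SE, adjusted p = 6.58e-07). Acss2, which activates acetate, had 1.77 ± 0.48 (SE, adjusted p = 0.0103). The lower gene was Acbd3, with -1.17 ± 0.17 (SE, adjusted p = 8.32e-05).

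Of other peroxisomal enzymes and transporters, 11 of 20 were higher and 0 lower. Ephx2, the soluble epoxide hydrolase, had 115, 145 and 125 CPM in mexAM and 0, 1.01 and 1.54 CPM in BALF, a total of 3 counts. The ratio of mexAM to BALF was 169, with a 95% interval of 57.7 to 822 for counting error only. Gnpat, the first enzyme of ether lipid synthesis, had 2.20 ± 0.25 (SE, adjusted p = 5.1e-06), and the peroxisomal membrane protein Pxmp4 had 1.51 ± 0.23 (SE, adjusted p = 9.33e-05). Of the peroxins, which build the organelle, 6 of 13 were higher and 1 was lower, with 1.79 ± 0.27 (SE, adjusted p = 0.000109) for Pex16 and 1.06 ± 0.25 (SE, adjusted p = 0.00412) for Pex14, and the lower one was Pex13, with -1.41 ± 0.30 (SE, adjusted p = 0.0018). Of other mitochondrial acyl-CoA and ketone enzymes, 6 of 19 were higher and 0 lower. Mlycd, which removes malonyl-CoA, the inhibitor of Cpt1, led them with 2.01 ± 0.28 (SE, adjusted p = 4.13e-05). Bdh1, a ketone body dehydrogenase, had 1.89 ± 0.42 (SE, adjusted p = 0.00269), and the thioesterase Acot13 had 1.00 ± 0.25 (SE, adjusted p = 0.00597).

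Of 17 regulators tested, 4 were higher in mexAM than in BALF (23.5%) and 4 were lower (23.5%), near the shares of all genes. Ppargc1b, a coactivator of mitochondrial genes, had 31.4, 22.4 and 39.5 CPM in mexAM and 4.81, 3.04 and 3.86 CPM in BALF, with 2.72 ± 0.39 (SE, adjusted p = 6.68e-05). Acaca, which makes malonyl-CoA, had 2.09 ± 0.34 (SE, adjusted p = 0.000196), and Lpin1, a phosphatidate phosphatase and coactivator, had 1.87 ± 0.24 (SE, adjusted p = 1.61e-05). Ppard, a fatty acid receptor, fell to 31.9, 20.4 and 32.5 CPM in mexAM, against 96.1, 95.4 and 62.5 CPM in BALF, with -1.79 ± 0.34 (SE, adjusted p = 0.000964). Lpin2 had -1.51 ± 0.26 (SE, adjusted p = 0.000282) and Sirt1 had -1.29 ± 0.22 (SE, adjusted p = 0.000331). Chosen after their values were seen, Ppara and Ppargc1a, known regulators of these genes in liver, held at most 1.01 CPM in any library, and Cpt1b, the muscle form of Cpt1, was at 0 in all 16. In mexAM against BMDM, where 21.5% of all genes were higher and 23.0% lower, the lists gave 6 of 12 higher and 0 lower for uptake and activation, 12 of 20 and 1 for peroxisomal enzymes, 4 of 13 and 1 for peroxins, 7 of 19 and 2 for mitochondrial enzymes, and 7 of 17 and 3 for regulators.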

How the data were processed

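RNA from 16 macrophage libraries was sequenced as 65-base single reads after a 3′ end kit, per the labels' protocols. The authors deposited raw counts per Ensembl gene; GRCm38 is named in the submitters' processing notes. Collapsing by molecular identifier and counting settings, both not given in the sources used here, could change counts, and intervals cover counting error only. Identifiers were turned into symbols with GENCODE M21.

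The members and lists were chosen with earlier results of these data known. Every one of the 36 members was named; values per library were printed mainly for called members whose higher group averaged 20 CPM or more, by size of change, and other pathway genes by the same minimum, up to 3 per list and direction, of which 1 is not reported here.

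Counts were tested with edgeR 4.0.16 in R 4.3.3 (quasi-likelihood, robust, TMM scaling, filterByExpr), with Benjamini-Hochberg adjustment over all genes tested and a threshold of 0.05. One fit held the 12 libraries of mexAM, BALF, PLF and BMDM (10011 genes, 8 residual degrees of freedom). A second added the pools with passages summed (10602 genes), and another compared passages (10527 genes). DESeq2 1.42.0, other scalings, no filter, blocks and left-out libraries were alternatives. On simulated counts for mexAM against BALF over 9500 genes, edgeR called 51% of log2 changes of 1, 98% of changes of 2 and 0.086% of unchanged genes. Each size of change was set in 100 genes, all averaging over 20 CPM, a smaller part of the genes than was called in the data. These rates need not hold for the members, least of all for those at lower levels.

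Libraries of the same mouse share an animal, per the labels, so the mouse numbers pair them. Deviations from the group means of same-numbered libraries correlated between -0.162 and 0.276 (median -0.0361, over 0.1 in 2 of 18 pairs, 8920 genes). Reads in no gene or in several genes were kept out of library sizes; ambiguous reads were 0.4505% to 0.625% of counted reads.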

Additional observations from a re-analysis of the deposited data

Results flagged for a closer look

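For 11 members, the log2 difference of mexAM minus BALF differed from that of BMDM minus PLF at an adjusted p under 0.05 in edgeR. Both differences set cultured against fresh cells, but BMDM were not grown from PLF cells, and the comparison was chosen after seeing the data. A larger difference in the lung pair was called for 19.4% of the members, beside 9.33% of all genes. A smaller one was called for 11.1%, near the 11.6% of all genes.

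It was larger in the lung pair for Acaa1b by 3.88, for Pex11a by 2.53, for Eci1 by 1.34, for Acadl by 1.28, for Acaa2 by 1.18 and for Hadha by 0.89. Ehhadh had a fitted value of 4.31, which rests on 1 count in BMDM. It was smaller in the lung pair for Cat, at -1.40, for Acadm, at -1.32, and for Hadh, at -1.74. Acot1 had -5.51, a fitted value that rests on PLF at 0.

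The calls of Acaa1b, Pex11a, Acadl, Cat, Acadm, Hadh and Acot1 held under every other setting and left-out library that was run, with 1 exception. The exception was the fit with BALF of mouse 1 as the only BALF library. There, 18 of the 36 members had a positive difference, with a median of -0.01. Acaa2 had 0.99 without the BMDM library of mouse 1 (adjusted p = 0.0519). Hadha and Ehhadh lost the call with the mouse as a block (adjusted p = 0.0614 for Hadha and 0.0616 for Ehhadh), and Hadha, Eci1 and Ehhadh each lost it without any of 8 of the 12 libraries.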

How the results depend on the processing

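Of the members called in mexAM against BALF, 18 of 22 kept the call under every setting and left-out library. Only runs with all groups at 2 or more libraries were counted. For mexAM against BMDM it was 23 of 26, and for BALF against BMDM 12 of 18. For BALF against PLF it was 20 of 28, for mexAM against PLF 31 of 35 and for PLF against BMDM 14 of 18. No called value changed its sign under the settings run. In BALF against BMDM, 2 members were lower, against 6 with library totals alone (beside 27.8% of all genes) and 1 to 3 with a library left out. In pool cultures against mexAM, 1 was lower, against 3 (and 1 higher) without the filter, 2 by DESeq2 and 0 to 2 with a library left out. The paired fits, with the mouse as a replicate block, gave 0 there and changed the calls named above and no others. In the culture difference, 7 were larger, against 3 to 7 with a library left out. The counts that follow come from fits with 1 BALF library. In those fits the share of all genes called was lower as well, in each comparison and direction named. A fall in the counts therefore cannot be read as particular to the members. With BALF of mouse 1 as the only BALF library, the counts were 6 higher for mexAM against BALF, 5 higher for pool cultures against BALF, 0 lower for BALF against BMDM, and 4 larger and 2 smaller for the culture difference; the cause was not tested, and fewer samples enter.

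The mitochondrial to peroxisomal ratio moved with the members summed. Adding the members of both locations to the mitochondrial sum gave 0.718 in pool cultures, 0.553 in mexAM, 1.17 in BALF and 1.64 in PLF. Adding them to the peroxisomal sum gave 0.427 in mexAM, 0.860 in BALF and 1.30 in PLF. Leaving out the most counted member of each class removed different genes in different groups, so the values that follow cover unlike members. The ratio was 0.851 in pool cultures (without Acadl and Acaa1b) and 0.842 in mexAM (without Hadha and Acaa1b). It was 1.19 in BALF and 1.67 in BMDM (both without Cpt1a and Cat), and 2.02 in PLF (without Acadl and Cat). Without Acaa1b in any group it was 1.03 in pool cultures, 1.01 in mexAM, 1.22 in BALF, 1.52 in PLF and 0.893 in BMDM, the lowest. Members at a few CPM, such as Hacl1 and Decr2, rest on few counts per library at these depths.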
